A study of Mus musculus with 8 samples.

Results

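The genes described here mark dendritic cells, and they were taken by symbol from the authors' tables, which hold 18860 genes. All 10 had a row. The plasmacytoid set comprised 4 of them, Siglech (ENSMUSG00000051504), Tcf4 (ENSMUSG00000053477), Ccr9 (ENSMUSG00000029530) and Klrd1 (ENSMUSG00000030165). The classical set comprised 6, Cd209a (ENSMUSG00000031494), Xcr1 (ENSMUSG00000060509), Clec9a (ENSMUSG00000046080), Zbtb46 (ENSMUSG00000027583), Batf3 (ENSMUSG00000026630) and Itgax (ENSMUSG00000030789). RNA was sequenced in bulk from leukaemia cells of the bone marrow of moribund C57BL/6 mice whose age the labels do not give. All libraries carry Vav1-Cre, a recombinase driven by a promoter active throughout blood cells, with hairpins that target Nf1 and Mll3. In the 11B3-deleted group (genotype 11B3fl/p53fl, n = 4 libraries) the floxed 11B3 segment of chromosome 11, which includes Trp53, is paired with a floxed Trp53 allele, and in the p53-loss-only group (p53fl/fl, n = 4 libraries) both alleles are floxed Trp53. The labels call the samples lines of acute myeloid cells without naming the animals, so a p-value here reflects variation among these libraries only, which may be technical.

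Dendritic cells present antigen to T cells and arise from Flt3-dependent progenitors in the marrow. Plasmacytoid dendritic cells, whose fate depends on the transcription factor Tcf4, release type I interferon on sensing nucleic acids. Classical dendritic cells express Zbtb46 and divide into a cross-presenting type that needs Batf3 and carries Xcr1 and Clec9a, and a second type marked by lectins such as Cd209a. Several of these genes are not exclusive to dendritic cells: Klrd1 is a natural killer (NK) cell receptor subunit, Itgax is found on macrophages, and Zbtb46 is also known from erythroid progenitors and endothelium.

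Values below are the deposited ones, each group listed from replicate 1 to 4, read counts scaled for library size plus 1, so a gene without reads has a value of 1. Reads per library ranged from 30502718 to 35719495. Myeloid granule and maturation genes were abundant in every library, with a summed value of 548994 to 1553127 over 17 neutrophil-lineage genes. Against this, the plasmacytoid set summed to between 1618.2 and 3182.9, most of it Tcf4, and the classical set to between 184.9 and 2042.6. In bulk RNA, fewer cells of a type and less RNA per cell cannot be told apart. B lineage genes stood apart in 11B3-deleted replicate 3, where 18 of them summed to 72555 against 647.4 to 3105 in the other libraries. Natural killer genes were present in all libraries, with a sum over 17 genes between 877.7 and 4300 under 11B3 deletion and between 697.5 and 3915 under p53 loss alone.

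The sequence before the gene start is shown for Siglech and Ccr9, which varied together over the libraries, and for Xcr1 and Clec9a, which mark the same type of classical dendritic cell and did not. RefSeq's table for GRCm38.p6, searched by symbol, gave a window used here for 7 of the 10 genes. Windows on the chromosome of Tcf4 were left out for the members, and the window of Zbtb46 was not used because it lies inside that gene. Klrd1 has no window here either. This build differs from mm9, the build named for the deposited values, and no coordinates are compared between the builds. The windows are Siglech at chr7:55767934-55768183 on the plus strand, Ccr9 at chr9:123766961-123767210 on the plus strand, Xcr1 at chr9:123862030-123862279 on the minus strand and Clec9a at chr6:129408612-129408861 on the plus strand. Capitals mark matches to CANNTG, the E-box bound by basic helix-loop-helix factors such as Tcf4.
Siglech: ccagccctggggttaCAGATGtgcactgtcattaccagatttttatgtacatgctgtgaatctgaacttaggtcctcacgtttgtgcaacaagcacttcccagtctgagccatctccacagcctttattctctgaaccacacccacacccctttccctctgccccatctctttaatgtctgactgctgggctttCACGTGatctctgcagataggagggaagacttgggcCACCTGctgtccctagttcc
Ccr9: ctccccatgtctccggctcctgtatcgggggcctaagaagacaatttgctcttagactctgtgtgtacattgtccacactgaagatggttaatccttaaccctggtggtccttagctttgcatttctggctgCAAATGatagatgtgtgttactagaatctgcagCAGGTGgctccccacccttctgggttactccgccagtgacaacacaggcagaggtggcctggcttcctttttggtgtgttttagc
Xcr1: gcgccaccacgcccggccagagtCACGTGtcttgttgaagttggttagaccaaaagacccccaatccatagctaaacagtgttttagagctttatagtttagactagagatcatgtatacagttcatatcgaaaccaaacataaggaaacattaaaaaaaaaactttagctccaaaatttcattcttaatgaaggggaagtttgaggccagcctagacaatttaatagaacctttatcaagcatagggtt
Clec9a: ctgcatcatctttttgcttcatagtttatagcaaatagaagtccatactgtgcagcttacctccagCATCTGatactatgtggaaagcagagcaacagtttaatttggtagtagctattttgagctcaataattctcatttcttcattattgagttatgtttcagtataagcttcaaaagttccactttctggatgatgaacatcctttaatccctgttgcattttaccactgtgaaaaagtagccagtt
An E-box match, searched on both strands, was present in 6 of the 7 windows used and in 66.2% of all 32851 windows of 250 bases in the table. Its presence is therefore near the background. Siglech held 3 matches, Ccr9 held 2, and Xcr1 and Clec9a held 1 each. TGANTCA, the AP-1 motif that Batf-family proteins bind with Jun partners, was found on either strand in 1 of the 7 windows, that of Itgax, and in 6.75% of all windows. The 2 motifs share no match among these windows.

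Siglech, a sialic acid-binding lectin that marks mouse plasmacytoid dendritic cells, had values of 271.4, 31.1, 185.2 and 137.7 with 11B3 deleted (replicates 1 to 4 in turn), against 31.1, 176.2, 73.4 and 7.4 with p53 loss alone. The groups overlapped, with a high library in p53-loss-only replicate 2 and a low one in 11B3-deleted replicate 2. The log2 difference was 1.54 (SE 1.01, 95% interval -0.73 to 3.82, limma adjusted p = 0.996), and 0.71 without p53-loss-only replicate 4. Ccr9, the receptor for the chemokine Ccl25, was much lower in abundance, at 62.5, 9.6, 30.1 and 54.3 against 17.5, 44.1, 18.5 and 13.8 in the same order. Its highest 4 libraries were the same 4 as those of Siglech, namely 11B3-deleted replicates 1, 3 and 4 and p53-loss-only replicate 2. The Ccr9 difference was 0.58 (SE 0.66, 95% interval -0.90 to 2.06), from 0.25 without 11B3-deleted replicate 1 to 1.15 without 11B3-deleted replicate 2.

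Tcf4, the basic helix-loop-helix factor of plasmacytoid fate, was the steadiest member. With 11B3 deleted it lay at 2792.3, 1443.0, 2310.8 and 2122.2, and with p53 loss alone at 1659.5, 2127.6, 2603.0 and 2195.8, a range of 1.94-fold against 36.7-fold for Siglech. The group difference was -0.01 (SE 0.23, 95% interval -0.53 to 0.51), and with DESeq2 it was 0.01, on the other side of 0. Tcf4 was therefore abundant even in p53-loss-only replicate 4, where Siglech was lowest. Tcf4 is also expressed in B cells, and in 11B3-deleted replicate 3, the library rich in B lineage genes, it lay behind 2 other libraries. What B lineage cells contribute to Tcf4 was not tested.

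Klrd1, the CD94 chain that pairs with NKG2 proteins, was at 56.6, 134.4, 33.0 and 120.8 against 131.1, 124.9, 69.0 and 15.9. It was high in 11B3-deleted replicate 2, where Siglech and Ccr9 were low, and in 11B3-deleted replicate 3 this was reversed. The difference between the groups was 0.19 (SE 0.75, 95% interval -1.50 to 1.88). On the log2 scale over 8 libraries, Pearson's r was 0.83 for Siglech with Ccr9, 0.33 for Siglech with Klrd1, -0.49 for that pair without the 2 libraries farthest from the Siglech median, and -0.49 for Tcf4 with Klrd1. Leaving out those 2 gave 0.93 for Siglech with Ccr9. For Tcf4 with Klrd1, leaving out the 2 libraries farthest from the Tcf4 median gave -0.09. These coefficients, like those below, describe the libraries, which share 1 scaling procedure, and are given without p-values.

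**Figure D1:**
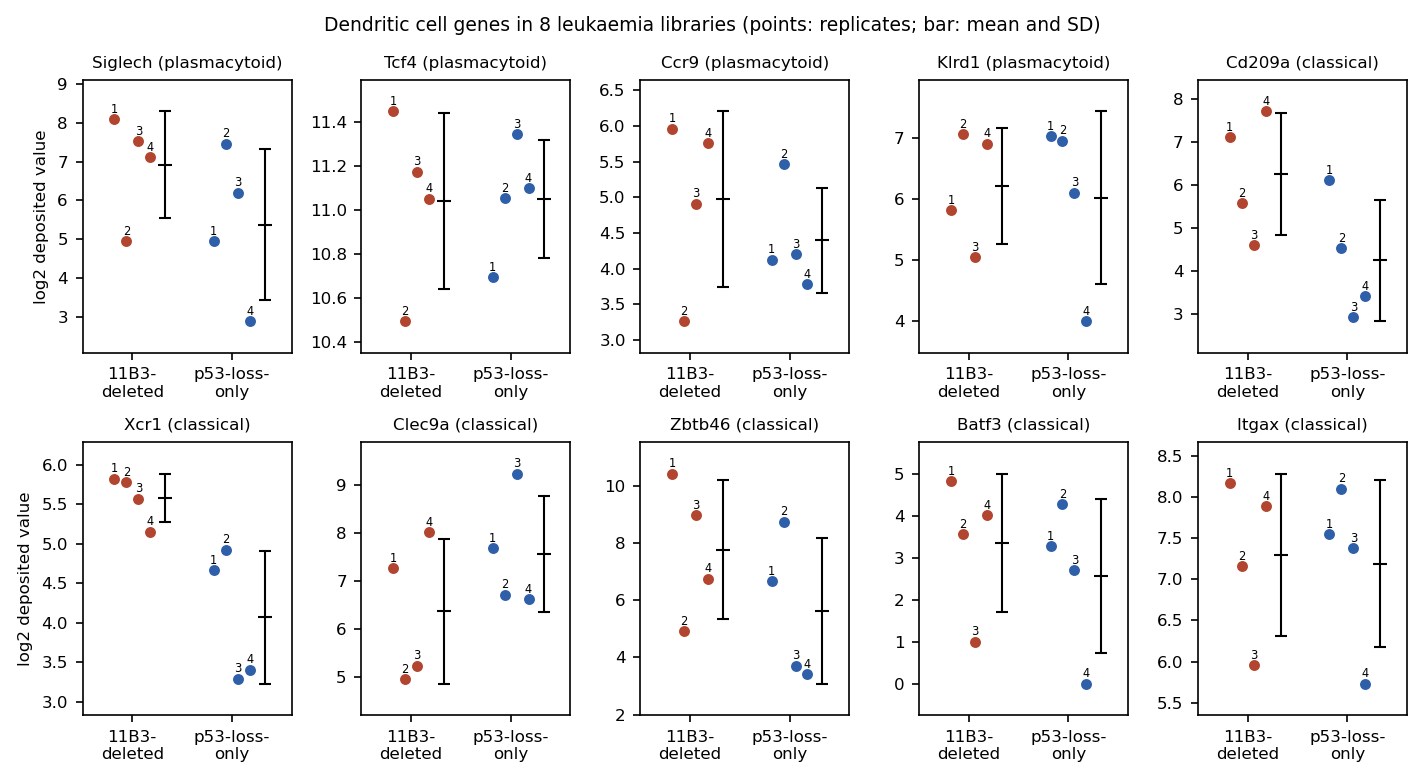
Log2 deposited values of the 10 genes; numbered points are replicates of the 11B3-deleted (red) and p53-loss-only (blue) groups, and bars give the mean and SD (n = 4). The groups overlap in every panel except that of Xcr1, and the vertical scale differs between panels.

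Among the classical genes, Xcr1 was the member whose groups did not overlap. This receptor for the chemokine Xcl1 had values of 56.6, 54.8, 47.5 and 35.6 with 11B3 deleted, against 25.3, 30.4, 9.8 and 10.6 with p53 loss alone. Each 11B3-deleted library was thus above each p53-loss-only library. Reads were few, at 57, 50, 48 and 39 against 25, 32, 8 and 9. The non-overlap therefore rests on 39 reads in 11B3-deleted replicate 4 against 32 in p53-loss-only replicate 2. The means were 48.65 ± 9.541 and 19 ± 10.4 (SD, n = 4 per group), and limma put the log2 difference at 1.51 (SE 0.47, 95% interval 0.45 to 2.58). The unadjusted limma p of 0.0105 ranked 105 among 14679 tested genes, and the adjusted p was 0.996 with limma and 0.415 with DESeq2, so Xcr1 did not pass. Leaving out any 1 library gave differences between 1.25 and 1.80.

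Clec9a, a lectin that binds actin of dead cells and marks the same dendritic type as Xcr1, had another pattern. With 11B3 deleted it read 155.3, 31.1, 37.8 and 259.3, and with p53 loss alone 206.9, 105.6, 605.2 and 99.0. The highest library, p53-loss-only replicate 3, had the lowest Xcr1, and the lowest, 11B3-deleted replicate 2, had the second highest Xcr1. Xcr1 had 8 reads in p53-loss-only replicate 3 and 9 in p53-loss-only replicate 4, too close to rank. In the latter, Clec9a was at 99.0. The mean lay lower in the 11B3-deleted group (log2 difference -1.20, SE 0.82, 95% interval -3.06 to 0.67), and the groups overlapped. Without p53-loss-only replicate 3 the difference was -0.64, and without 11B3-deleted replicate 2 it was -0.73. Pearson's r of Clec9a with Xcr1 was -0.57, and it was -0.57 again without the 2 libraries farthest from the Xcr1 median.

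Batf3, the AP-1 family factor that this dendritic type requires, had few reads. With 11B3 deleted there were 28, 10, 1 and 17 reads, and with p53 loss alone 9, 20, 5 and 0, or values of 28.3, 11.8, 2.0 and 16.1 against 9.7, 19.3, 6.5 and 1.0. The 0 reads in p53-loss-only replicate 4 allow up to 3 reads, a value of 4.195, by counting error alone. Batf3 passed the filter with exactly the 4 libraries it needs, 3 of them 11B3-deleted. Its log2 difference of 0.78 (SE 1.06, 95% interval -1.61 to 3.17) was -0.08 without p53-loss-only replicate 4.

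Itgax, the CD11c integrin chain, was at 288.0, 143.0, 62.1 and 237.1 against 187.4, 274.4, 166.6 and 53.2, and differed by 0.10 (SE 0.62, 95% interval -1.31 to 1.51). Its libraries ran in nearly the same order as those of Batf3. Both were highest in 11B3-deleted replicate 1, p53-loss-only replicate 2 and 11B3-deleted replicate 4 and lowest in p53-loss-only replicate 4. Pearson's r of the pair was 0.97, the highest of the 45 pairs of members, and 0.83 without the 2 libraries farthest from the Batf3 median.

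Cd209a, a mouse homologue of the pathogen receptor DC-SIGN, read 136.7, 47.3, 24.3 and 207.8 with 11B3 deleted, against 69.0, 23.0, 7.6 and 10.6 with p53 loss alone. The lowest 11B3-deleted value lay below the p53-loss-only maximum, so the groups overlapped. The log2 difference was 2.0 (SE 0.86, 95% interval 0.05 to 3.95), with an unadjusted limma p of 0.0459 and adjusted p = 0.996.

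Zbtb46, a zinc finger repressor used to tell classical dendritic cells from other myeloid cells, had the widest range, 130-fold. With 11B3 deleted it reached 1377.6, 30.1, 504.1 and 108.4, and with p53 loss alone 102.0, 431.3, 13.1 and 10.6. The spread within each group covered most of this range, and the difference was 2.13 (SE 1.46, 95% interval -1.16 to 5.43), from 1.25 without 11B3-deleted replicate 1 to 3.17 without p53-loss-only replicate 2. The library order of Zbtb46 was close to that of erythroid genes. For Klf1, the erythroid Krüppel-like factor, Pearson's r with Zbtb46 over the 8 libraries was 0.99. It was 0.99 for Epor, the erythropoietin receptor, 0.97 for Ermap and 0.96 for Rhag, and r exceeded 0.9 for 9 of the 15 erythroid genes listed. The globin gene Hbb-b1 reached 0.60. Klf1 itself was at 3754.9, 108.6, 960.6 and 512.2 against 432.1, 1056.0, 33.9 and 34.0; it and the other genes in these comparisons of order, apart from Rhag, were named after their values were seen.

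The level of the whole erythroid list, taken as the median over its 15 genes of the log2 value minus the gene's mean, stood at 2.54, -0.76, 1.10 and 0.78 with 11B3 deleted, against 0.51, 1.77, -3.06 and -2.01 with p53 loss alone. All 15 genes had the higher mean log2 value with 11B3 deleted (median log2 difference 1.79), but 9 of 15 had the higher mean value and 9 of 15 were higher with edgeR, the globin genes and Alas2 among the exceptions, and 0 were called or had an unadjusted p under 0.05. Its summed value spanned 9788 to 215803 with 11B3 deleted, against 1265 to 49380 otherwise, and no erythroid gene was at 0 reads in any library. Zbtb46 followed this level with a Pearson's r of 0.95 and a Spearman's rho of 0.95, and r was 0.96 without the 2 libraries farthest from the median level. For Siglech the same coefficient was 0.69, for Ccr9 0.74, for Cd209a 0.69 and for Xcr1 0.79. Without those 2 libraries it was 0.86, 0.87, 0.10 and 0.02. With the level of genes of all dendritic cells and their maturation, r was 0.55, 0.70, 0.66 and 0.51 in the same order. It was 0.45, 0.50, 0.94 and 0.79 without the 2 libraries farthest from that list's median. With further plasmacytoid genes r was 0.22 for Siglech and 0.15 for Ccr9. Cd209a had -0.32 with further genes of the second classical type, and Xcr1 had -0.38 with those of the cross-presenting type. Without the 2 libraries farthest from each list's own median, these coefficients were -0.52 for Siglech, -0.33 for Ccr9, -0.34 for Cd209a and -0.81 for Xcr1. The part of erythroid RNA in the values of these members was not tested.

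NK cell genes moved with Klrd1 and with Clec9a. Its neighbours in the NK receptor family, Klrc2 and Klrc1, which encode NKG2 partners of CD94, had r of 0.98 and 0.93 with it; Klrc1 was named after its values were seen. Klrc2 was at 35.2, 50.5, 14.6 and 82.7 against 75.8, 61.5, 36.1 and 6.3, following the drop of Klrd1 in 11B3-deleted replicate 3 and p53-loss-only replicate 4. Over the 17 NK genes the median r with Klrd1 was 0.72, from 0.16 for Gzma, a granzyme, to the 0.98 of Klrc2. The list's level had r = 0.80 with Klrd1 and 0.12 without the 2 libraries farthest from its median, so the relation to the level rests on those libraries. They are 11B3-deleted replicate 3 and p53-loss-only replicate 4. Klrc2, among the genes closest to Klrd1 of all tested, kept r = 0.839 with it without the same 2 libraries. Clec9a had r = 0.71 with the list's level, and 0.80 without those 2 libraries. Among single NK genes, r with Clec9a was 0.94 for Gzma and 0.86 for Ncr1, the receptor NKp46. Itgax had r = 0.79 with the list's level, and -0.04 without those 2 libraries. Gzma was at 555.8 in p53-loss-only replicate 3 and between 28.1 and 180.6 elsewhere. Other lists gave coefficients close to these. The level of the monocyte and macrophage list had r = 0.80 with Klrd1, and 0.52 without the 2 libraries farthest from its own median. Clec9a had r = 0.70 with the level of further cross-presenting genes and 0.66 with that of further plasmacytoid genes. Without the 2 libraries farthest from each list's own median, these were 0.52 and 0.71. What NK cells contribute to these members was not tested.

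**Figure D2:**
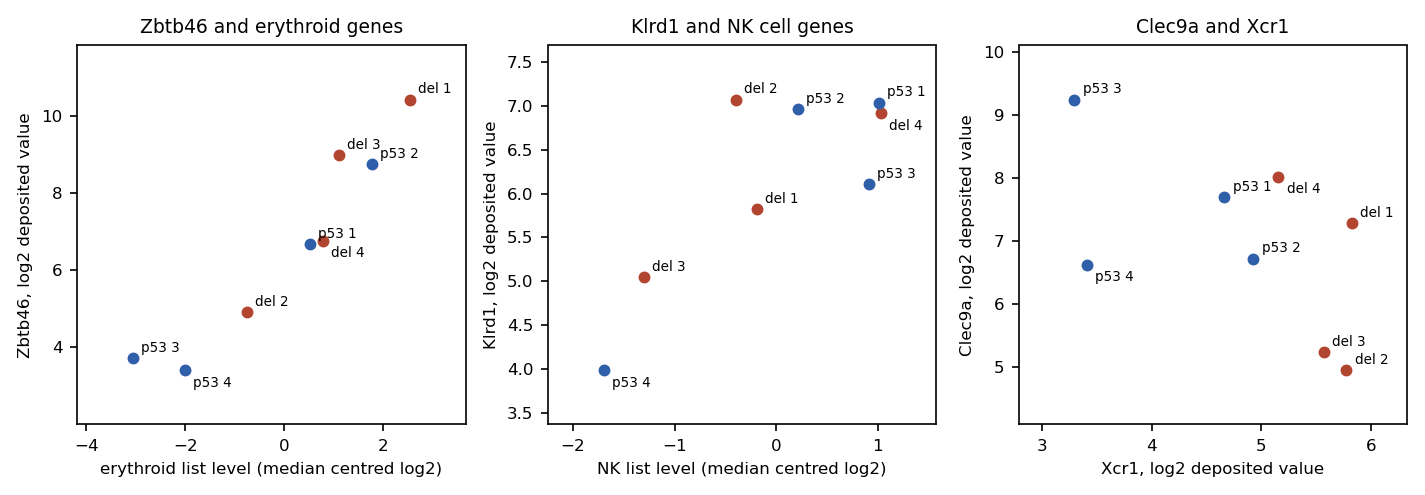
Each point is 1 library (del, 11B3-deleted, red; p53, p53-loss-only, blue), with log2 deposited values of Zbtb46 against the erythroid list level, of Klrd1 against the NK list level, and of Clec9a against Xcr1. Zbtb46 rises along the erythroid level (r = 0.95, n = 8 libraries), and the low end of the Klrd1 panel holds 2 libraries. Clec9a is highest in p53-loss-only replicate 3, where Xcr1 had 8 reads, against 9 in p53-loss-only replicate 4.

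Compared between the genotypes, none of the 10 members was called by limma with p-values adjusted (Benjamini-Hochberg) across the 14679 genes tested, where 2 genes or 0.0136% passed. None of the members passed with edgeR or DESeq2 on the recovered reads either; DESeq2, which gave no adjusted p for Batf3, called 0.395% of all genes. At an unadjusted limma p under 0.05 there were 2 members, Xcr1 and Cd209a, both higher in the 11B3-deleted group, where 3.56% of all genes lay under that value and 1.18% were higher. Non-overlap toward higher values held for 1 member of 10, Xcr1, and for 0.913% of all genes. Mean log2 values were higher for 8 of 10 members, against 51.6% of all genes, with a median log2 difference of 0.68 against 0.01. Clec9a and Tcf4 were the exceptions. By the mean of the values themselves 9 of 10 were higher, Tcf4 included. Without p53-loss-only replicate 4, the log2 differences of Klrd1, Itgax and Batf3 were -0.49, -0.38 and -0.08. Those of Siglech, Ccr9, Cd209a, Xcr1 and Zbtb46 stayed above 0. The members were chosen with earlier results of these data known. All 10 members had passed the filter on low values.

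**Figure D3:**
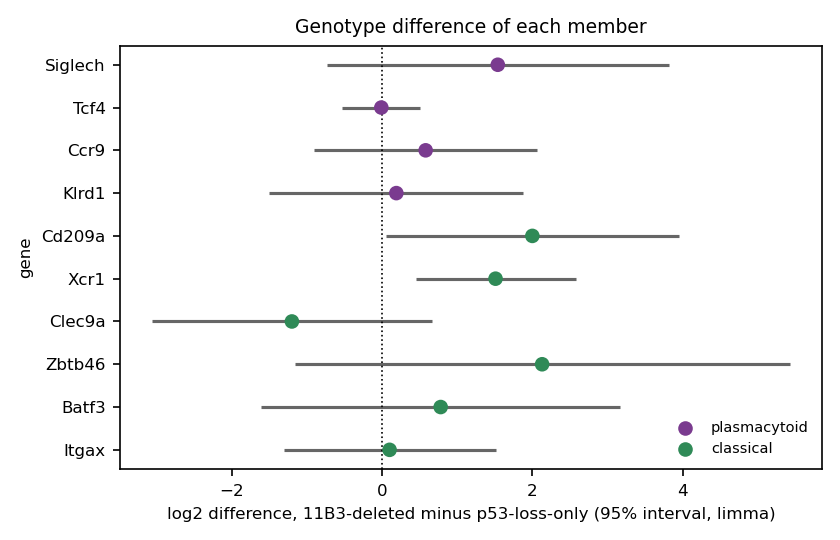
Log2 difference of each gene, 11B3-deleted minus p53-loss-only, with its 95% interval from limma (n = 4 libraries per group). The intervals of Xcr1 and Cd209a lie above 0 and the other 8 include it; none passed after adjustment over all genes.

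The sets were compared by the median over their genes of the log2 value minus each gene's mean. For the plasmacytoid set this level stood at 0.84, -0.87, 0.18 and 0.88 with 11B3 deleted, against -0.45, 0.81, 0.02 and -1.51 with p53 loss alone. For the classical set it was 1.43, 0.12, -0.96 and 0.85 against 0.32, 0.48, -0.90 and -1.67. The same 3 libraries were highest in both sets, 11B3-deleted replicates 1 and 4 and p53-loss-only replicate 2, and p53-loss-only replicate 4 was lowest in both. The set levels parted in 11B3-deleted replicate 2, second lowest for the plasmacytoid and in the middle for the classical genes, and in 11B3-deleted replicate 3. In the latter, Siglech and Zbtb46 were high and Klrd1, Batf3, Itgax and Clec9a low, so each set held genes of both kinds. The plasmacytoid means were 0.26 ± 0.82 and -0.28 ± 0.97 and the classical means 0.36 ± 1.03 and -0.44 ± 1.02 (SD, n = 4 each), so the differences of 0.54 and 0.80 were smaller than the SD within groups. Without p53-loss-only replicate 4 they were 0.18 and 0.40. The median r was 0.41 over the 6 pairs within the plasmacytoid set, 0.49 over the 15 pairs within the classical set and 0.43 over the 24 pairs across the sets.

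**Figure D4:**
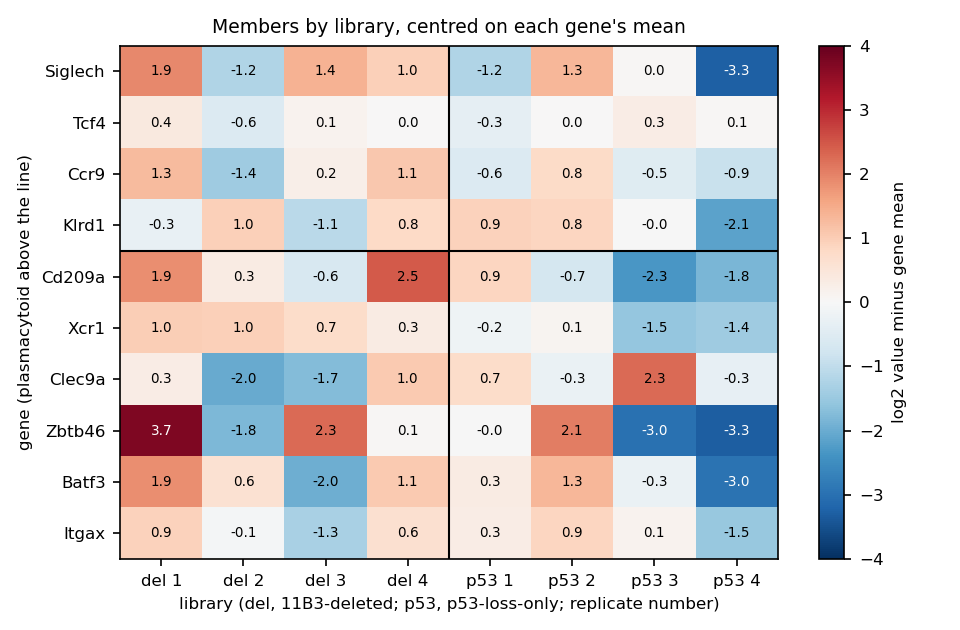
Log2 value of each gene minus its mean over 8 libraries (colour and printed number), with the p53-loss-only libraries right of the vertical line and the plasmacytoid genes above the horizontal one. Zbtb46 spans the widest range, Tcf4 the narrowest, and p53-loss-only replicate 4 is low for most genes.

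Set against gene length, as value above 1 per kilobase of merged annotated exons (GENCODE M21), the median over the libraries was 78.9 for Tcf4, 73.3 for Klrd1, 39.3 for Clec9a, 36.6 for Itgax, 30.9 for Siglech, 22 for Cd209a, 12.2 for Zbtb46, 7.18 for Xcr1, 6.11 for Batf3 and 2.27 for Ccr9. The library ranges of each pair of neighbours in this order overlapped, for example 52.7 to 102 for Tcf4 and 11.6 to 104 for Klrd1. The maxima of Clec9a (183), Zbtb46 (162), Cd209a (131) and Klrd1 lay above that of Tcf4. Merging exons of all isoforms lowers the level of genes with many isoforms such as Tcf4.

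Some members are near neighbours on a chromosome. In RefSeq gene order Ccr9 and Xcr1 lie on chromosome 9 with 2 coding genes between them, and their r was 0.38. It was 0.73 without the 2 libraries farthest from the Ccr9 median. Cxcr6, a chemokine receptor between them, stayed within 31.2 and 63.4 in all libraries. Clec9a and Klrd1 lie on chromosome 6 with 6 coding genes between them, and their r was 0.17. It was -0.48 without the 2 libraries farthest from the Klrd1 median. Clec7a, the beta-glucan receptor in that stretch, was at 3667.8 to 11776.5, far above both.

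Genes most like each member were those with the highest Pearson's r of log2 values over the 8 libraries among the other tested genes. For Siglech they were Zfp451 (r = 0.971), Gpr155 (0.968) and Ing5 (0.962). Klrd1 had Klrc2 (0.975), Akr1c12 (0.975) and Tmc4 (0.970). For Clec9a the closest were Gm10320 (0.985), Tlr5 (0.953), the flagellin receptor, and Gzma (0.939). Zbtb46 was followed by Epb4.1l5 (0.990), Chrm4 (0.989) and C530008M17Rik (0.989). It had r over 0.9 with 145 genes, against 110 for Klrd1 and 6 for Cd209a. Batf3 and Itgax shared Fermt3, the kindlin of blood cells, at 0.969 and 0.950. No plasmacytoid or classical marker from the further lists was among the 3 closest genes of any member. Each of these r is among the highest in a search over all tested genes, and no chance level was computed. Some of the closest genes were low, such as Gm10320 at 9.6 to 17.4 and Akr1c12 at 3.1 to 16.6.

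Further plasmacytoid genes were split. Of 30 listed, 26 were tested, with 13 higher and 13 lower mean log2 values in the 11B3-deleted group and a median log2 difference of 0.01, equal to that of all genes. None passed with limma, edgeR or DESeq2; at an unadjusted p under 0.05, 2 were higher and 1 lower. Bcl11a, a transcription factor needed for plasmacytoid cells and for B cells, averaged 3555 ± 2434 with 11B3 deleted and 749.8 ± 498.8 otherwise (SD, n = 4 per group), and limma gave a difference of 2.25 in log2 (SE 0.77, adjusted p = 0.996). Upb1 differed by 1.93 (SE 0.82), and Ptprs, a receptor phosphatase found on plasmacytoid cells, by -0.89 (SE 0.30). Grn, progranulin, differed by -0.80 (SE 0.37).

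Further genes of the cross-presenting type, 19 tested of 20, had 7 higher and 12 lower mean log2 values (median -0.20), and 0 passed with limma, edgeR or DESeq2 or had an unadjusted p under 0.05. Cd24a differed by 2.12 (SE 1.04), Naaa by -0.48 (SE 0.31) and Ppt1, a lysosomal thioesterase, by -0.34 (SE 0.22). Of genes of the second classical type, 17 of 19 had the lower mean log2 value (median -0.38), and 16 of 19 the lower mean value. None passed with limma or edgeR. At an unadjusted p under 0.05, where 2.38% of all genes were lower, 4 were lower, S100a4 (-1.05, SE 0.33), Tnip3 (-1.81, SE 0.66), Relb (-0.64, SE 0.26), an NF-κB subunit, and Mgl2 (-1.91), a galactose-binding lectin named after its values were seen. Mgl2 and its neighbour Clec10a (-0.85, SE 0.49) lie between Sco1 and Alox12 on chromosome 11 in RefSeq gene order, the stretch known from the study as 11B3, so a copy of both lies in the segment floxed in the 11B3-deleted group. Outside that stretch 15 of 17 genes of the list were lower, 3 of them at an unadjusted p under 0.05, and none of the 10 members lies in it.

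Irf4, a transcription factor of the second classical type and of lymphocytes, was the 1 gene of that list higher at an unadjusted p under 0.05. With 11B3 deleted it reached 159.2, 4612.2, 1072.0 and 157.2, and with p53 loss alone 82.6, 134.0, 108.5 and 93.6. The groups did not overlap, and the log2 difference was 2.53 (SE 0.99, limma adjusted p = 0.996; DESeq2 adjusted p = 0.0065). B lineage genes summed to 72555 in 11B3-deleted replicate 3 and to 802.5 in 11B3-deleted replicate 2. What B lineage cells contribute to Irf4 was not tested. Genes of all dendritic cells and of their maturation, 21 tested of 25, had 12 higher and 9 lower mean log2 values (median 0.12) and no call with limma or edgeR, and 1 had an unadjusted p under 0.05. That gene, Dpp4, the peptidase CD26, was at 1767.1, 67.7, 657.2 and 353.4 against 108.8, 157.0, 38.3 and 77.7 (log2 difference 2.27, SE 0.91, limma adjusted p = 0.996; DESeq2 adjusted p = 0.0483), with overlapping groups. Kmo differed by 1.20 (SE 0.74), Cd86, a costimulatory ligand, by -0.68 (SE 0.39) and Csf2ra, the GM-CSF receptor chain, by -0.69 (SE 0.41).

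Markers of other cell types gave no call with limma or edgeR in any list. Over the 17 NK genes 6 had higher and 11 lower mean log2 values with 11B3 deleted (median log2 difference -0.10), over 15 T cell genes 5 and 10 (-0.23), and over 17 neutrophil-lineage genes 7 and 10 (-0.16). All 16 tested B lineage genes had higher mean log2 values (1.76), and their median level was 5.55 in 11B3-deleted replicate 3 against -1.68 to 0.45 elsewhere. In these lists DESeq2 called 0 genes and 0 had an unadjusted limma p under 0.05. Of 19 monocyte and macrophage genes 8 were higher and 11 lower (-0.24), with an unadjusted p under 0.05 for 1 higher and 3 lower. What these cells contribute to the dendritic cell values was not tested.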

How the data were processed

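RNA was measured by bulk sequencing in 8 libraries, 4 per genotype, grouped by sample title. STAR, HTSeq and DESeq and the build mm9 are named in the submitters' processing notes, with no version or role. The deposited tables give 1 signal value per gene: as the values themselves show, the authors divided read counts by a factor fixed within the library and added 1. After removal of the 1, division by this step turned 100% of values into whole reads (tolerance 0.02). The labels do not state whether strand or molecular identifiers were used; counting limits cover counting error only.

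Since the values are not whole counts, the test was limma 3.58.1 (R 4.3.3) with a mean-variance trend on log2 of the deposited value (the 1 is the pseudocount, which understates folds of low genes), on 14679 genes that reached a value of 10 in 4 or more libraries, group as the only term, two-sided, Benjamini-Hochberg at 0.05. The scripts were tested on simulated data. Alternatives were TMM scaling, other filters, an added constant of 5, edgeR 4.0.16 and DESeq2 1.42.0 on recovered reads, limma voom with sample weights, left-out libraries and the replicate number as a block. No 2 libraries agreed within sampling noise (smallest chi-square per degree of freedom 92.4).

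The members and gene lists were chosen with earlier results of these data known. Lists covered plasmacytoid, both classical and pan-dendritic genes, and NK, T, B, monocyte, neutrophil and erythroid markers. Named genes are the 10 members, the 4 genes per list with the smallest p (for other cell types also the 2 most abundant), and the 3 genes most correlated with each member; not every one is printed. A listed alternative symbol that belongs to another gene was removed before use. One listed gene's result is not reported here.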

Additional observations from a re-analysis of the deposited data

How the results depend on the processing

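No member was called under any of the alternatives run, and the log2 differences of Siglech, Ccr9, Cd209a, Xcr1, Clec9a and Zbtb46 kept their sign in each that gave them a value; Ccr9, Cd209a, Xcr1 and Batf3 fall out under the filter of 50 in 4 libraries. Tcf4 was 0.00 with edgeR, 0.01 with DESeq2 and 0.13 with limma voom and sample weights, and Klrd1 and Itgax were -0.41 and -0.22 with voom. With 1 library left out, Tcf4 ranged from -0.14 to 0.17, Klrd1 from -0.49 to 0.58, Itgax from -0.38 to 0.55 and Batf3 from -0.08 to 1.57, the last over the 4 left-out libraries that keep it above the filter. The NK genes Klrk1 (0.22) and Il2rb (-0.07) ranged from -0.78 to 0.71 and from -0.65 to 0.39, and Klrk1 was -0.11 with edgeR, -0.10 with DESeq2 and -0.58 with voom. Of all genes, 1 was called with the stricter filter, the constant of 5 or edgeR, 58 with DESeq2, 0 with voom and 0 to 1 with a library left out; the cause was not tested. DESeq2 called 2 of the further classical and pan-dendritic genes, Irf4 (3.85) and Dpp4 (2.91), where limma called 0. Leave-one-out set differences ran from 0.18 to 0.89 (plasmacytoid) and 0.40 to 1.19 (classical). Same-numbered libraries did not deviate together (r from -0.414 to -0.03), but these values cannot show whether they shared a batch. With the replicate block 0 genes were called. Depth limits Batf3 most, at 0 to 28 reads. Xcr1 and Ccr9 were also low, at 8 to 57 and 8 to 63 reads.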

Other observations

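Some dendritic cell genes outside the 2 sets were high in a single library; they were picked after their values were seen and are given as values. Ciita, the master regulator of MHC class II genes, was at 9660.7 in p53-loss-only replicate 4 against 21.8 to 190.9 elsewhere. The class II gene H2-Aa was at 896.6 there and between 142.5 and 1968.9 elsewhere. H2-Ab1 (416.3) and H2-Eb1 (373.7) also lay within their ranges elsewhere. Cd74, by contrast, was highest in p53-loss-only replicate 4, at 5577.9 against 549.3 to 4781.6 elsewhere. Cd83 (143.7) and Cd86 (523.9) were highest there too. In that library 8 of the 10 members, Tcf4 and Clec9a excepted, were at their lowest or next to lowest value. Spib, a transcription factor of plasmacytoid and B cells, was at 1717.6 in 11B3-deleted replicate 3, the library rich in B lineage genes, and between 22.5 and 167.9 elsewhere. Atp1b1 was at 4863.8 in the same library and between 32.8 and 392.7 elsewhere. Epcam, an adhesion molecule, was at 898.2 in p53-loss-only replicate 2 and between 5.9 and 51.4 elsewhere. Il12b, the interleukin 12 subunit of mature dendritic cells, had a value of 1.0 to 3.0 in every library.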
